A study of Homo sapiens with 21 samples.

Results

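The glutamate and GABA receptor genes were followed through the accessible chromatin sites that carried their names. A site belonged to the set when the name of its nearest gene began with GRIA, GRID, GRIK, GRIN1, GRIN2, GRIN3, GRM or GABR and ended in the subunit letter or digits alone, so that GRINA, other names that are no subunit and the antisense names were dropped (6 names with 148 sites). This gave 1839 of 367900 sites and 45 of 26788 gene names, namely 4 AMPA, 5 kainate, 7 NMDA, 2 delta and 8 metabotropic glutamate receptor genes and 19 GABA-A receptor genes. Of these sites, 1774 passed the filter on low counts and were tested, 65 did not, and all 45 genes kept at least 1 tested site. A site takes its name from the nearest transcription start site (TSS), which need not be the gene that it regulates, and accessibility is not a measure of expression.

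The assay was ATAC-seq, which reads open DNA from the cuts of Tn5 transposase, and the cells were SK-N-BE(2), a human line established from a neuroblastoma. Cells of all groups were transduced with lentivirus made in HEK293T cells and carrying shRNA plasmids, and were collected 72 h later as biological triplicates. The 7 groups of 3 libraries were Control, shARID1A.2 and shARID1A.4 (ARID1A silenced), shARID1B.2 and shARID1B.3 (ARID1B silenced), and shARID1A/B.2.3 and shARID1A/B.4.2 (both silenced, the name joining the numbers of the shRNAs). ARID1A and ARID1B replace each other as scaffold subunits of BAF, a complex that remodels chromatin. All groups came from 1 cell line, and every silenced group was compared with the same 3 Control libraries.

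Ionotropic glutamate receptors (AMPA, kainate and NMDA) are ligand-gated cation channels that carry fast excitatory transmission, and metabotropic glutamate receptors signal through G proteins. GABA-A receptors are chloride channels assembled from alpha, beta, gamma and rarer subunits, and many of their genes lie in clusters. Neuroblastoma arises from precursors of the sympathetic nervous system.

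Libraries held 16140029 to 44472230 reads in sites, and the receptor sites took 0.297% to 0.355% of them. Promoter sites took 20.0% to 20.6% of the reads in Control and 23.4% to 25.1% with the combinations, which moves together with every rise at a promoter described here, and its part in those rises was not tested. Sites at or nearest to the starts of the noradrenergic neuroblastoma genes PHOX2A, HAND2, GATA3, DBH and TH and of MYCN held 2.43 to 43.8 CPM in Control, and those of PTPRC, CD3E, EPCAM, PECAM1 and ALB, markers of other cell types, held 0.178 to 6.6 CPM. CPM (counts scaled to the reads in sites of each library with TMM factors) is not corrected for the length of a site. The promoter site of ARID1A (6.84 CPM in Control, log2 change 0.46 after combined silencing) and the site nearest the ARID1B start (40.6 CPM, 0.29) do not measure the silencing, because an shRNA acts on the transcript.

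Sequence is shown for 3 receptor sites that carry findings described next. They are the site with the largest fall among those that met the naming rule (GABRP, chr5:170691903-170692202), the GRIK3 site with the lowest p (chr1:37051466-37051765) and the site that most clearly separated ARID1A from ARID1B silencing (GRID1, chr10:86319638-86319937). Each is the central 300 bases of its site on the plus strand of GRCh38, in which capitals mark matches, on either strand, to the E-boxes or the GATA motif spelled out after them.
GABRP site: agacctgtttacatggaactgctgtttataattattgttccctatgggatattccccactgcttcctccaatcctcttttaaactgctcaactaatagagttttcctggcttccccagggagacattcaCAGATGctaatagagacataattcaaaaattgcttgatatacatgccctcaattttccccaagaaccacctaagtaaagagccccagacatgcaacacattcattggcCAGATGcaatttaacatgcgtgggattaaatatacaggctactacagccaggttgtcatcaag
GRIK3 site: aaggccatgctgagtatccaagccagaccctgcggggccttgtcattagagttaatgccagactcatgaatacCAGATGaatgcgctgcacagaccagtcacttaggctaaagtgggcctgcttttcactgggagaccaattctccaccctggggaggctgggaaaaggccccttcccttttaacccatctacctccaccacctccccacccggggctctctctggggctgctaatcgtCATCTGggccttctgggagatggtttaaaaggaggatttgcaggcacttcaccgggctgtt
GRID1 site: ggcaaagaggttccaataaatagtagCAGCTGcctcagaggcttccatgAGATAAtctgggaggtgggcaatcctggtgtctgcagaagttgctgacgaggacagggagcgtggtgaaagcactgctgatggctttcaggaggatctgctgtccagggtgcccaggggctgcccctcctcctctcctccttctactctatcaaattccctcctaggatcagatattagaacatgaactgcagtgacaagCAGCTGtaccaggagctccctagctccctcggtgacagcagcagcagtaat
The GABRP and GRIK3 windows held 2 matches each to the E-box CATCTG, and the GRID1 window held 1 match to the GATA motif AGATAA and 2 to another E-box, CAGCTG.

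Combined silencing of ARID1A and ARID1B, taken as the mean of both combinations against Control, closed 128 receptor sites and opened 36. Closed means lower and opened means higher than Control with an FDR (false discovery rate) under 0.01 in the edgeR quasi-likelihood test with Benjamini-Hochberg adjustment over all 357029 tested sites. The closed receptor sites were 7.22% of those tested, beside 10.3% of all tested sites, and the opened ones were 2.03%, beside 3.44%. Both shares lay below those of all sites. These calls rest on the mean of the combinations, and not all held in each. With shARID1A/B.2.3 and shARID1A/B.4.2 each tested separately, 86 receptor sites closed in both and 10 opened in both. The share of all tested sites called in both is not given. The median log2 change was -0.99 at the closed sites and 0.53 at the opened sites, and 63 closed sites but only 1 opened site changed by at least 1 on the log2 scale. At least 1 site closed in 30 of the 45 genes and at least 1 opened in 18. For 9 genes, among them GABRA3, GABRD, GRIN2D, GRM2 and GRM8, 0 of 66 tested sites were called by edgeR or by DESeq2, and 1 was lower and 9 were higher at an unadjusted p under 0.05. In a bulk library, fewer cells with an open site and less accessibility in every cell cannot be told apart. The balance of closed and opened sites depended on the scaling. When libraries were scaled on promoter sites, the median log2 change over all tested sites went from 0.03 to -0.20, and the receptor calls became 198 closed and 5 opened, beside 15.9% and 0.729% of all tested sites. The number opened also rested on Control libraries, with 20 sites without Control replicate 1 and 18 without Control replicate 3.

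**Figure D1:**
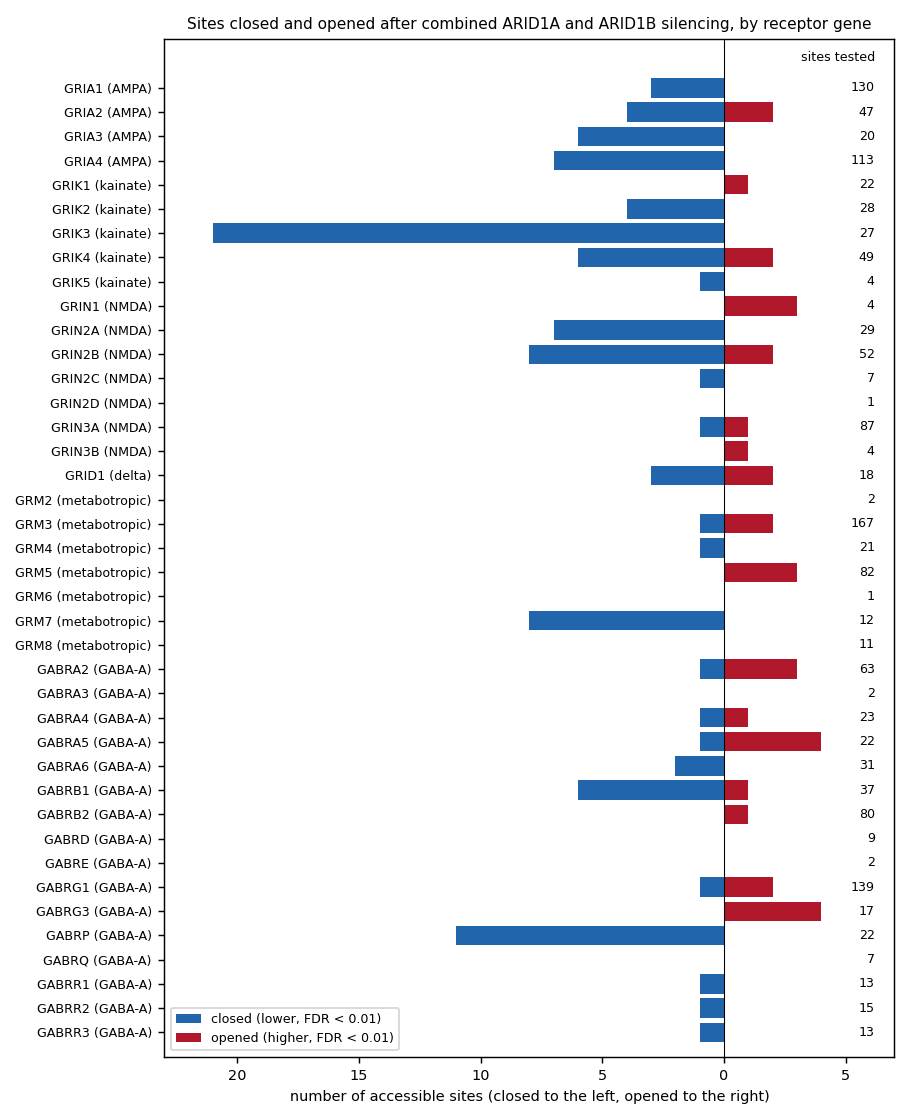
Number of closed sites (blue, to the left) and opened sites (red, to the right) of receptor genes after combined ARID1A and ARID1B silencing, with the number of tested sites at the right. GRIK3 had the longest bar, with 21 of 27 tested sites closed, whereas GRM3, GABRG1 and GRIA1, the genes with the most tested sites (167, 139 and 130), had few calls.

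Each of the silenced groups closed more receptor sites than it opened. The shRNAs against ARID1A closed 58 receptor sites (shARID1A.2; background 4.54%) and 59 (shARID1A.4; 4.17%) and opened 6 (0.836%) and 19 (2.28%). For ARID1B, shARID1B.2 closed 22 sites (1.83%) and opened 17 (1.34%), and shARID1B.3 closed 68 (4.88%) and opened 21 (3.13%). The combinations closed 130 sites (shARID1A/B.2.3; 10.4%) and 108 (shARID1A/B.4.2; 7.37%) and opened 42 (2.86%) and 31 (3.97%). With both shRNAs of a gene averaged, the numbers closed were 76 for ARID1A (5.37%) and 42 for ARID1B (3.53%), and those opened were 10 (1.68%) and 7 (1.4%). Scaling on promoter sites gave 117 closed and 4 opened sites for shARID1A.4, 29 and 12 for shARID1B.2, 122 and 6 for shARID1B.3, 159 and 7 for shARID1A/B.2.3, 188 and 6 for shARID1A/B.4.2, and 79 and 3 for ARID1B. Scaling on library totals gave 121 and 66 for shARID1A/B.2.3. The shares of all tested sites under these scalings are not given for these groups. For combined silencing, the promoter scaling moved the median over all tested sites from 0.03 to -0.20. These counts alone therefore show no change particular to the receptor sites.

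The opened counts leaned on single libraries, whereas no closed count moved by more than 1.5 times when a library was left out. For shARID1A/B.2.3, the 42 opened receptor sites became 25, 73 and 16 without Control replicates 1, 2 and 3, and 73 with the replicate number as a block in a fit of Control and this group, whose same-numbered libraries deviated together. Among the ARID1A groups, the 6 sites of shARID1A.2 became 3 without Control replicate 2, Control replicate 3 or its own replicate 3, and the 19 of shARID1A.4 became 12 without Control replicate 3 and 10 and 9 without its own replicates 1 and 2. The 10 opened sites of the averaged ARID1A groups became 5, 6 and 3 without Control replicates 1, 2 and 3 and 4 without shARID1A.2 replicate 1. For ARID1B, the 17 sites of shARID1B.2 became 10 without Control replicate 1 or 3 and 8 without its own replicate 3, and the 21 of shARID1B.3 became 12 without its own replicate 2.

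Of the receptor families, the kainate receptor genes had the largest share of closed sites after combined silencing, with 32 of 130 tested sites (24.6%) and 3 opened. The counts were 17 closed and 7 opened of 184 for the NMDA receptor genes, 20 and 2 of 310 for the AMPA receptor genes, 41 and 17 of 687 for the GABA-A receptor genes, and 11 and 5 of 363 for the metabotropic receptor genes. In the separate groups, shARID1A.2 closed 18 and shARID1A.4 closed 14 kainate sites, shARID1B.2 closed 5, shARID1B.3 closed 15, and the combinations closed 32 with shARID1A/B.2.3 and 23 with shARID1A/B.4.2. Most of the kainate closures came from GRIK3, with 21 of its 27 tested sites closed. The other kainate genes closed at 6 of 49 (GRIK4), 4 of 28 (GRIK2), 1 of 4 (GRIK5) and 0 of 22 (GRIK1) sites. The large share of the family thus rested on GRIK3. Without GRIK3 the receptor sites closed in 107 of 1747 (6.12%), beside 10.3% of all tested sites.

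**Figure D2:**
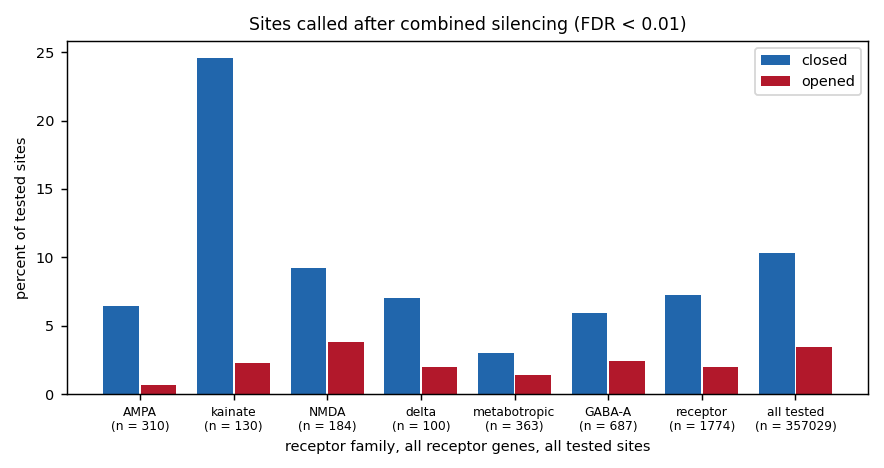
Percent of tested sites closed (blue) and opened (red) after combined silencing, for each receptor family, for all receptor genes and for all tested sites. The kainate genes reached 24.6% closed, above the 10.3% of all tested sites, and the other families lay below it. GRIK3 held 21 of the 32 closed kainate sites.

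GRIK3, which encodes a kainate receptor subunit of low glutamate affinity, was the receptor gene with the most closed sites. Its 27 tested sites spanned chr1:36768581-37074265, and 21 of them closed, 11 in introns and 1 in an exon of GRIK3 and 9 between genes, with log2 changes from -0.58 to -2.38. None opened, by edgeR, by DESeq2 or at an unadjusted p under 0.05 (0 sites each). The closed sites were weak, with a median of 0.884 CPM.

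At the GRIK3 site whose sequence is shown, 17372 bases upstream of the start, Control libraries held 1.97, 2.01 and 2.28 CPM. With shARID1A/B.2.3 they held 0.458, 0.301 and 0.307 CPM, and with shARID1A/B.4.2 0.313, 0.459 and 0.647 CPM. All combination libraries lay below all Control libraries, with a log2 change of -2.34 (SE 0.22, FDR 6.76e-16), and the site also closed after ARID1A silencing (-1.61) and ARID1B silencing (-1.34). A stronger GRIK3 site in intron 7 of 15 (chr1:36856440-36858363, chosen after its values were seen) held 5.95, 4.83 and 6.99 CPM in Control, 2.39, 1.39 and 2.54 CPM in shARID1A/B.2.3 and 2.55, 2.16 and 3.05 CPM in shARID1A/B.4.2 (log2 -1.37, SE 0.13, FDR 8.64e-15). Here too the groups did not overlap.

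The site at the GRIK3 start (264 bases into the gene, chr1:37032753-37035206) did not pass the test, with 5.04, 4.26 and 5.32 CPM in Control, 4.75, 3.99 and 5.43 CPM in shARID1A/B.2.3 and 6.34, 5.23 and 5.92 CPM in shARID1A/B.4.2 (log2 0.10, SE 0.13, FDR 0.67). Its groups overlapped. Within 200000 bases on either side of the GRIK3 sites, 6 of 15 tested sites named for other genes closed, beside 10.3% of all tested sites. Closing here was therefore not limited to sites named for GRIK3. The shARID1A.2 group had 13 closed GRIK3 sites, shARID1A.4 had 8, shARID1B.2 had 2 and shARID1B.3 had 9, and there were 19 and 16 with shARID1A/B.2.3 and shARID1A/B.4.2.

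**Figure D3:**
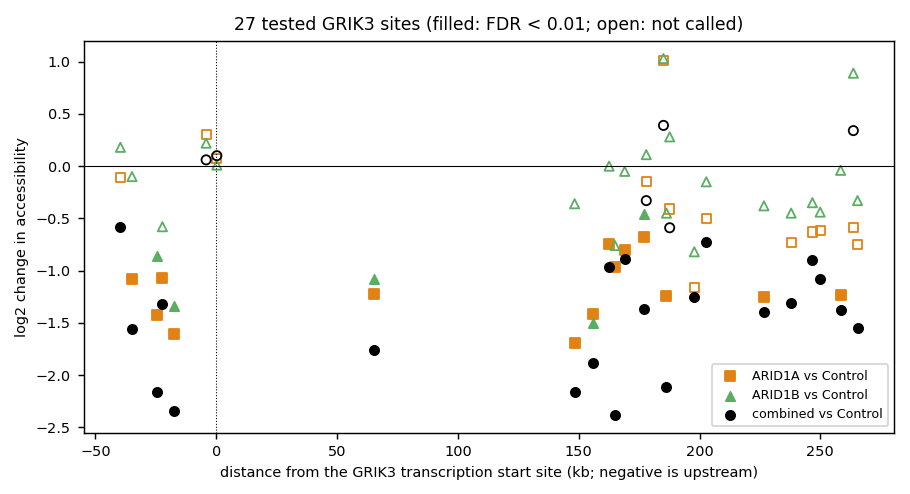
Log2 change of the 27 tested GRIK3 sites against the distance from the GRIK3 start in kb, after ARID1A, ARID1B and combined silencing, filled where the FDR was under 0.01. The 21 filled points of combined silencing lie from -0.58 to -2.38 on both sides of the start, and the point at the start lies at 0.10.

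The other kainate receptor genes had fewer closed sites. At GRIK2, which encodes another low-affinity subunit, 4 of 28 sites closed, and an intergenic site 97435 bases upstream (chr6:101295555-101296992) held 11.7, 10.6 and 8.83 CPM in Control. It held 1.96, 2.69 and 2.5 CPM in shARID1A/B.2.3 and 2.64, 2.71 and 3.79 CPM in shARID1A/B.4.2, a log2 change of -1.93 (SE 0.11, FDR 1.11e-26). The shRNAs against 1 gene gave unlike levels here, with 5.96 ± 0.131 CPM (mean ± SD, n = 3) in shARID1A.2 but 3.26 ± 0.241 CPM in shARID1A.4, and 7.09 ± 0.631 CPM in shARID1B.2 but 2.24 ± 0.298 CPM in shARID1B.3.

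GRIK4 and GRIK5 encode the high-affinity subunits, which form channels together with the others. In GRIK4, 6 sites closed and 2 opened of 49, with the largest fall in intron 1 (chr11:120526963-120527901, chosen after its values were seen), where Control held 13.6, 10.2 and 12.6 CPM, shARID1A/B.2.3 held 3.76, 2.92 and 4.38 CPM and shARID1A/B.4.2 held 5.45, 4.68 and 5.18 CPM (log2 -1.50, SE 0.11, FDR 1.33e-20). In GRIK5, intron 11 of 13 held its closed site (chr19:42051920-42053518), with 4.32, 4.59 and 5.04 CPM in Control, 1.41, 1.09 and 1.53 CPM in shARID1A/B.2.3 and 2.1, 2.29 and 1.66 CPM in shARID1A/B.4.2 (log2 -1.52, SE 0.14, FDR 7.21e-16). In both sites the combination libraries lay below all Control libraries. GRIK1, a further low-affinity subunit, had 1 opened site of 22 tested (log2 0.44).

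Among the AMPA receptor genes, which encode the channels of fast excitatory synapses, GRIA3 closed at 6 of 20 tested sites. Its site in intron 2 of 15 (chrX:123219655-123220390), 35779 bases from the start, held 3.41, 3.44 and 3.36 CPM in Control. It held 0.916, 0.904 and 0.877 CPM in shARID1A/B.2.3 and 0.715, 0.826 and 0.878 CPM in shARID1A/B.4.2, a log2 change of -1.99 (SE 0.17, FDR 6.02e-18). The libraries of the single-shRNA groups, from 1.52 to 2.88 CPM, all lay below Control and above the combinations. GRIA4 closed at 7 of 113 sites (log2 -0.46 to -0.79), GRIA2 at 4 of 47 with 2 opened, and GRIA1 at 3 of 130. A GRIA2 site 939 bases into the gene (chr4:157220080-157223135, chosen after its values were seen) opened from 38.4, 39.5 and 35.5 CPM in Control to 43.9, 49.7 and 44.7 CPM in shARID1A/B.2.3 and 50.3, 52.8 and 47.9 CPM in shARID1A/B.4.2 (log2 0.35, SE 0.07, FDR 9.33e-05), while the closed GRIA2 sites had log2 changes from -0.70 to -1.29. This rise was small beside the effect of scaling on promoter sites, which moved the median over all tested sites from 0.03 to -0.20. Its call under that scaling is not given here.

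The NMDA receptor genes moved in both directions. GRIN1, which encodes the subunit that every NMDA receptor contains, had 4 tested sites, of which 3 opened and 0 were lower by edgeR, by DESeq2 or at an unadjusted p under 0.05. Its promoter site (chr9:137137871-137139975) held 5.95, 4.3 and 6.79 CPM in Control, 11.0, 6.88 and 9.73 CPM in shARID1A/B.2.3 and 8.44, 8.3 and 9.98 CPM in shARID1A/B.4.2. All combination libraries were above the highest Control library, the lowest of them by a small margin, with a log2 change of 0.66 (SE 0.13, FDR 2.08e-05). The GRIN1 site in intron 5 of 20 (chr9:137150377-137151707, chosen after its values were seen) rose after ARID1A silencing (log2 0.84, FDR 2.06e-08), and the ARID1A and ARID1B changes differed there by 0.61 (SE 0.09, FDR 1.81e-07).

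GRIN2A and GRIN2B, which encode glutamate-binding subunits, lost sites, with 7 closed of 29 (GRIN2A) and 8 closed and 2 opened of 52 (GRIN2B). The GRIN2B site with the largest fall (chr12:13537443-13538277, intergenic, 70792 bases from the start) held 2.35, 3.32 and 2.72 CPM in Control, 0.785, 0.672 and 1.14 CPM in shARID1A/B.2.3 and 0.804, 1.33 and 0.924 CPM in shARID1A/B.4.2 (log2 -1.61, SE 0.18, FDR 1.88e-12). Its log2 change was -0.01 with shARID1A.2 and -0.21 with shARID1B.2, neither past the test, beside -1.55 with shARID1A.4 and -1.49 with shARID1B.3. In intron 3 of 12 of GRIN2B another site (chr12:13739167-13740244) rose from 2.49, 2.29 and 2.28 CPM in Control to between 2.82 and 4.06 CPM in the combination libraries (log2 0.63, SE 0.15, FDR 0.00104), a call that was lost under scaling on promoter sites and without Control replicate 3, where the lowest log2 change was 0.39. GRIN2C closed at 1 of 7 sites, and GRIN3A, a glycine-binding subunit gene, closed at 1 and opened at 1 of 87.

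GRID1, which encodes a delta receptor, a protein that organises synapses, closed at 3 of 18 sites and opened at 2. Among the metabotropic genes, GRM7, a presynaptic inhibitory receptor, closed at 8 of 12 tested sites with log2 changes from -0.95 to -2.54. A GRM7 site 6608 bases into the gene in intron 1 of 11 (chr3:6866787-6868922, chosen after its values were seen) held 11.0, 11.4 and 9.39 CPM in Control, 4.39, 4.13 and 4.34 CPM in shARID1A/B.2.3 and 6.57, 6.84 and 7.72 CPM in shARID1A/B.4.2 (log2 -0.95, SE 0.10, FDR 3.77e-13). In the mean of both shRNAs, ARID1B silencing lowered it more than ARID1A silencing (log2 -0.98 beside -0.35, difference 0.63, SE 0.09, FDR 2.98e-08). The means were 5.69 and 4.98 CPM with the shRNAs against ARID1B and 6.56 and 10.5 CPM with those against ARID1A. The shRNAs against ARID1A thus gave unlike levels, with the 10.5 CPM inside the range of the Control libraries.

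GRM5, which encodes a receptor coupled to calcium release, opened at 3 of 82 sites by edgeR and at 1 by DESeq2, whereas 0 closed by either and 1 was lower at an unadjusted p under 0.05. The opened GRM5 site in intron 2 of 8 (chr11:88946351-88946665) had the only rise of at least 1 among called receptor sites (log2 1.25, SE 0.37, FDR 0.00932), from a mean of 0.261 ± 0.122 CPM (SD, n = 3) in Control to 0.646 ± 0.177 and 0.563 ± 0.151 CPM with the combinations, and it was chosen after its values were seen. GRM3, the receptor gene with the most tested sites (167), closed at 1 and opened at 2, and GRM4 closed at 1 of 21.

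GABRP, which encodes the pi subunit found mainly outside the brain, closed at 11 of 22 tested sites and opened at 0, with none higher by DESeq2 or at an unadjusted p under 0.05 either. At the GABRP site whose sequence is shown (chr5:170691591-170692513), Control libraries held 10.4, 10.1 and 9.23 CPM. Libraries of shARID1A/B.2.3 held 3.04, 2.71 and 2.54 CPM and those of shARID1A/B.4.2 held 2.41, 1.93 and 1.57 CPM, a 4.22-fold fall (log2 -2.08, SE 0.12, FDR 3.23e-28). The single-shRNA groups were between these levels, with 4.12 ± 0.463 CPM (mean ± SD, n = 3) in shARID1A.2 and 5.21 ± 0.524 CPM in shARID1A.4, and 4.17 ± 0.448 CPM in shARID1B.2 and 6.58 ± 0.803 CPM in shARID1B.3, and their libraries overlapped neither Control nor the combinations. This site lies in intron 2 of 8 of KCNIP1, 96522 bases upstream of GABRP, and carries the name of GABRP by its distance to the start alone. Another GABRP site (chr5:170751469-170752955, intergenic, 36362 bases upstream) fell from 12.3, 10.7 and 11.9 CPM in Control to 4.91, 3.73 and 4.69 CPM in shARID1A/B.2.3 and 2.55, 2.16 and 2.73 CPM in shARID1A/B.4.2 (log2 -1.82, SE 0.11, FDR 1.98e-26).

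**Figure D4:**
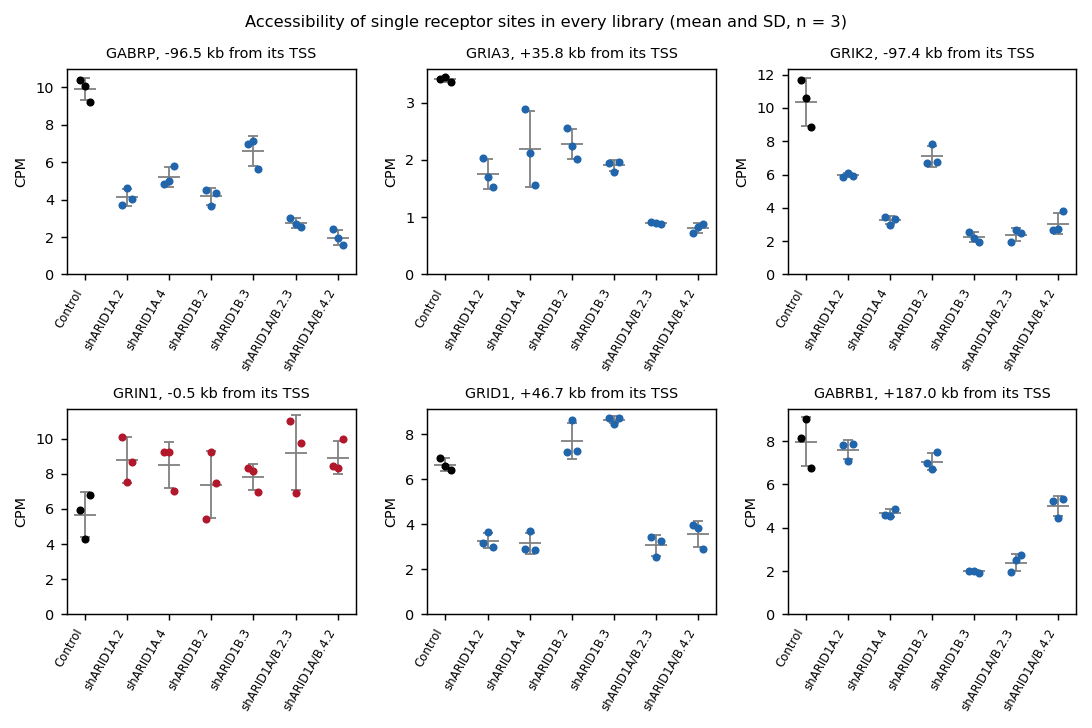
CPM of 6 receptor sites in every library (points), with the mean and SD of each group (n = 3). The GABRP, GRIA3 and GRIK2 sites were lower in all silenced libraries than in Control, the GRIN1 promoter site was higher with the combinations, the GRID1 site was low wherever ARID1A was silenced, and the GABRB1 site was lowest in shARID1B.3 and shARID1A/B.2.3.

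A GABRA6 site (chr5:161628106-161628580) had a log2 change of -1.59 (SE 0.18) after combined silencing, with all combination libraries below Control. On chromosome 4 (GABRG1, GABRA2, GABRA4 and GABRB1), 9 of 262 sites closed and 7 opened, and 6 of the closures were named for GABRB1, a beta subunit. GABRG1, with 139 tested sites, closed at 1 and opened at 2.

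After combined silencing, GABRG3 sites in intron 1 (chr15:26974073-26974612) and intron 3 (chr15:27059254-27060584) rose by 0.69 (SE 0.17, FDR 9.62e-04) and 0.64 (SE 0.14, FDR 1.07e-04) on the log2 scale. In both sites all combination libraries lay above all Control libraries. Both calls were lost when libraries were scaled on promoter sites (log2 changes 0.46 and 0.41), and that of the intron 1 site also without Control replicate 3.

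On chromosome X (GABRE, GABRA3 and GABRQ), 0 of 11 tested sites were called by edgeR or DESeq2, and 1 in each direction had an unadjusted p under 0.05. Among the rho subunit genes, which are best known from the retina, GABRR1 had 1 closed site of 13, in intron 1 of 11 (chr6:89221717-89223325), from 10.3, 9.62 and 8.47 CPM in Control to 3.47, 2.83 and 3.02 CPM in shARID1A/B.2.3 and 3.39, 3.76 and 4.44 CPM in shARID1A/B.4.2 (log2 -1.45, SE 0.11). GABRR2 and GABRR3 closed at 1 site each.

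Of 26 tested receptor sites annotated as promoter-TSS, in 24 genes, 5 opened (19.2%, beside 33.5% of all promoter-TSS sites) and 1 closed (3.85%, beside 4.24%). The opened promoters were those of GRIN3B (log2 0.81), GRIN1 (0.66), GABRA5 (0.59), GABRG3 (0.45) and GABRA2 (0.41). The GRIN3B promoter was weak (mean 0.894 CPM in Control), did not pass with shARID1A/B.4.2 alone (FDR 0.0326) and was not called by DESeq2. That of GABRG3 did not pass with shARID1A/B.2.3 alone (FDR 0.0167). The closed site, annotated as a promoter but 5299 bases upstream of the GABRP start used for its name, held 3.55, 2.7 and 3.48 CPM in Control, 2.13, 1.3 and 1.45 CPM in shARID1A/B.2.3 and 1.65, 1.61 and 2.45 CPM in shARID1A/B.4.2 (log2 -0.89, SE 0.16, FDR 3.73e-06). The 4 receptor promoter sites with the highest CPM did not pass the test, with log2 changes of -0.01 for GRM8, -0.07 for GRIK2, -0.17 for GABRQ and 0.23 for GRIN2A. The means for GRIK2 and GRM8 joined changes of opposite sign, 0.18 with shARID1A/B.2.3 and -0.32 with shARID1A/B.4.2 at GRIK2 (difference 0.50, FDR 4.77e-05) and -0.16 and 0.14 at GRM8 (difference -0.30, FDR 0.00633). None of these changes from Control passed the test. Under scaling on promoter sites, 6 receptor promoters closed and 2 opened (GABRA5 and GRIN1), and their median log2 change went from 0.07 to -0.17. At that setting 15.9% of all tested sites closed and 0.729% opened, and the shares of all promoter-TSS sites are not given. These counts therefore show no change particular to receptor promoters.

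Away from promoters, 9.2% of 902 intronic receptor sites closed (12% of all intronic sites) and 5.16% of 814 intergenic ones (9.39%). The receptor sites lay far from starts, with a median distance of 103 kb beside 50.7 kb for all tested sites. Among sites of 5 CPM or more, 30% of 90 receptor sites closed and 15.6% opened, beside 26.6% and 23.4% of all sites of that level. From 2 to 5 CPM, 13.3% of receptor sites closed, beside 20.7%, and 6.12% opened, beside 3.4%. Most receptor sites (959 of 1774) held under 1 CPM, where 3.13% closed and 0.104% opened, beside 3.77% and 0.555% of all sites of that level.

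The central 300 bases of all sites were searched on both strands for 7 short motifs, whose matches could overlap. CATCTG, an E-box, occurred in 39.8% of the 128 closed receptor sites (51), in 13.9% of the 36 opened, in 20.7% of those not called and in 23% of all sites, beside 33.0% of the closed sites of all genes. Among the 21 closed GRIK3 sites, 11 (52.4%) held it. The sequence AGATAA, bound by GATA factors, occurred in 27.3% of closed receptor sites, 24.7% of the closed sites of all genes and 16.9% of all sites. In the same order, CAGCTG, another E-box, occurred in 20.3%, 20.2% and 17.6%, TGANTCA, the AP-1 motif, in 14.1%, 14.3% and 10.9%, and a PHOX2-type motif in 3.12%, 2.65% and 1.07%. CCGGAA, an ETS motif, was found in 1.56%, 2.81% and 3.6%, and a motif from the CTCF site in 0.0%, 1.35% and 2.41%. For each of these motifs the closed receptor sites were nearer to the closed sites of all genes than to all sites. For the PHOX2-type, ETS and CTCF motifs this rested on only 4, 2 and 0 of the 128 closed receptor sites. The median GC content was 44.2% in closed and 49.2% in opened receptor sites and 46.7% in all sites. These shares describe sequence, and no test was made of them.

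Counts summed over all sites of a gene gave a change for each receptor gene. After combined silencing, 13 of the 45 genes were lower (all gene names 20.9%) and 3 were higher (15.9%) at an FDR under 0.01 over 26743 gene names, and 29 did not pass. GRIK3 had the largest fall, from 51.4, 44 and 49.6 CPM in Control to 23.2, 21.2 and 23.6 CPM in shARID1A/B.2.3 and 25.3, 23.3 and 25 CPM in shARID1A/B.4.2 (log2 -1.04, SE 0.06, FDR 1.71e-11). GABRP fell from 115.0, 109.0 and 115.0 CPM to 75.8, 70.0 and 75.6 CPM in shARID1A/B.2.3 and 67.6, 65.7 and 70.3 CPM in shARID1A/B.4.2 (log2 -0.68, SE 0.04, FDR 1.67e-11). In both genes every combination library lay below every Control library. Other genes that fell included GABRR1 (-0.51), GRIK5 (-0.51), GRIA3 (-0.49), GRM7 (-0.48), GRIK2 (-0.29), GRIN2A (-0.29), GRIK4 (-0.26), GABRB1 (-0.25) and GRIN2B (-0.22), with log2 changes in parentheses. Several of these calls did not hold throughout. GRIK2 and GRIN2B did not pass with shARID1A/B.2.3 alone (FDR 0.102 and 0.17), GRIK5 and GRIK4 did not with shARID1A/B.4.2 alone (0.107 and 0.0498), and GABRB1 passed with neither combination alone. Without Control replicate 2, the calls of GRIK2 (-0.21), GRIN2B (-0.16) and GABRB1 (-0.15) were lost. GABRB1 also lost its call without replicate 1 or 3 of shARID1A/B.2.3 or any 1 library of shARID1A/B.4.2 (-0.22 to -0.25), in a fit of only the groups compared (-0.25) and when only sites within 100000 bases of a start were summed (-0.05). With promoter sites left out of the sums of all gene names, the calls of GRIK4 (-0.16), GABRB1 (-0.15) and GRIN2B (-0.12) were lost. GRIK4, GABRB1 and GRIN2B had 0 tested promoter sites, so no tested site of theirs was removed. Leaving out promoter sites also rescales the libraries, and the median over all gene names went from 0.02 to 0.05. The call of GRIK4 was also lost under scaling on library totals (-0.20).

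The genes that rose in summed counts were GRIN1 (log2 0.50, SE 0.09, FDR 8.34e-05), GABRG3 (0.29, SE 0.05, FDR 2.94e-05) and GABRA5 (0.25, SE 0.05, FDR 1.12e-04). GRIN1 went from 28.8, 21.7 and 26.2 CPM in Control to 39.5, 32.3 and 39.6 CPM in shARID1A/B.2.3 and 34.9, 33.5 and 36.5 CPM in shARID1A/B.4.2. GABRG3 went from 34.9, 34.5 and 32.3 CPM to 40.7, 42.3 and 39.5 CPM and to 41.1, 43.3 and 41.3 CPM. Neither overlapped Control. Scaling on promoter sites, which moved the median over all gene names from 0.02 to -0.16, gave 19 lower and 1 higher receptor gene (35.5% and 3.77% of all gene names), and scaling on library totals gave 12 and 5 (16.8% and 22.2%). The calls of GABRG3 and GABRA5 were lost under scaling on promoter sites. ARID1A silencing lowered 9 receptor genes (background 14.4%) and raised 1 (7.28%), GRIN1. ARID1B silencing lowered 6 (9.95%) and raised 0 (5.44%) by edgeR or DESeq2, with 3 higher at an unadjusted p under 0.05.

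**Figure D5:**
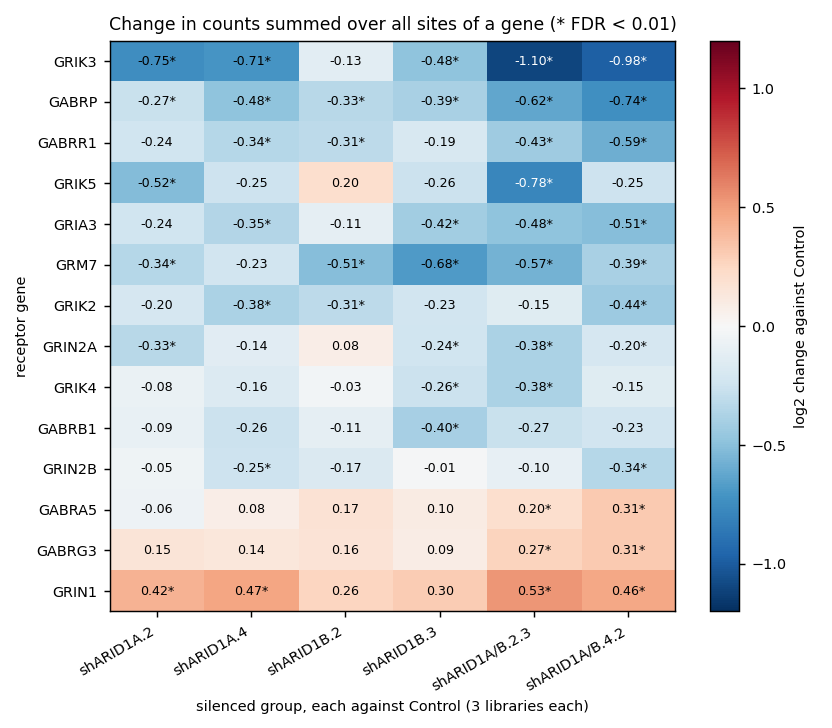
Log2 change against Control of the counts summed over all sites of receptor genes called after combined silencing, for the 6 silenced groups (3 libraries each), with an asterisk where the FDR was under 0.01. GRIK3 ranged from -0.13 with shARID1B.2 to -1.10 with shARID1A/B.2.3, GRM7 was lowest with shARID1B.3 at -0.68, and GRIN1 was above 0 in all 6 groups.

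ARID1A and ARID1B silencing were compared directly to ask where the paralogues differed. They differed at 59 receptor sites, 46 lower with ARID1A silencing (background 3.69%) and 13 higher (1.05%). The site with the lowest p was the GRID1 site with the sequence shown, in intron 2 of 16 (chr10:86319207-86320367). Control libraries held 6.96, 6.59 and 6.39 CPM, shARID1A.2 held 3.16, 3.64 and 3.0 CPM and shARID1A.4 held 2.92, 3.69 and 2.87 CPM. By contrast shARID1B.2 held 7.19, 8.61 and 7.25 CPM and shARID1B.3 held 8.73, 8.45 and 8.72 CPM. The log2 change was -1.04 for ARID1A and 0.29 for ARID1B, which did not pass the test, and the difference was -1.33 (SE 0.10, FDR 1.08e-19). With the combinations the GRID1 site held 3.44, 2.55 and 3.24 CPM and 3.98, 3.85 and 2.91 CPM, near the level of the ARID1A groups.

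Further sites with a larger fall after ARID1A silencing were named for GRIN2A (chr16:10227983-10229396, difference -0.99, SE 0.11) and GRIN2B (chr12:13526488-13527826, -0.96, SE 0.12). The GRIN2B site held 4.84, 4.14 and 5.0 CPM in Control, between 1.74 and 2.5 CPM in the ARID1A libraries and between 2.89 and 5.48 CPM in the ARID1B libraries, so that the silenced groups did not overlap. In summed counts 4 receptor genes were lower with ARID1A than with ARID1B silencing (background 7.03%), among them GRIK3 (difference -0.43, FDR 7.35e-06), GRIK5 (-0.35) and GRIN2A (-0.16). For GRIK5 and GRIN2A the shRNA groups did not separate by target, with shARID1A.4 (means 8.67 and 65.9 CPM) above shARID1B.3 (8.6 and 61.5 CPM) and shARID1B.2 highest (11.9 and 76.8 CPM). GRM7 was higher (0.31, SE 0.06, FDR 5.36e-04; 1 gene, 2.78%), with a log2 change of -0.29 after ARID1A and -0.60 after ARID1B silencing.

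Combined silencing was also set against the mean of the 4 single-shRNA groups. Of the receptor sites, 84 were lower with combined silencing (background 6.85%) and 10 higher (0.969%). The GABRP site in the KCNIP1 intron differed by -1.08 (SE 0.10, FDR 1.13e-15), the GABRP site 36362 bases upstream by -0.89 (SE 0.09), and the GABRR1 site in intron 1 by -0.81 (SE 0.08), all on the log2 scale. At the GABRP site 36362 bases upstream the single groups were not all above the combinations. There shARID1A.4 alone held a mean of 3.69 CPM, below the 4.44 CPM of shARID1A/B.2.3. In summed counts the difference was -0.52 for GRIK3 (SE 0.05, FDR 4.66e-08) and -0.31 for GABRP (SE 0.03, FDR 1.10e-07).

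The combinations themselves differed at 61 receptor sites, 38 lower with shARID1A/B.2.3 (background 3.78%) and 23 higher (1.44%). This count became 37 without shARID1A/B.2.3 replicate 2 and 38 and 34 without shARID1A/B.4.2 replicates 1 and 3. A GRIK4 site in intron 1 (chr11:120563724-120565732) held 20.3, 16.3 and 20.7 CPM in Control and 20.1, 16.9 and 21.1 CPM in shARID1A/B.2.3, but 36.7, 35.0 and 36.5 CPM in shARID1A/B.4.2 (difference -0.90, SE 0.09, FDR 8.01e-13). At a GABRA4 site in intron 6 of 8 (chr4:46970066-46972789) Control held 2.78, 2.87 and 3.08 CPM, shARID1A/B.2.3 held 3.73, 3.24 and 3.9 CPM and shARID1A/B.4.2 held 8.4, 9.08 and 7.67 CPM (difference -1.23, SE 0.13, FDR 1.30e-12). Both sites were among the opened sites of combined silencing although the change with shARID1A/B.2.3 did not pass the test.

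A GABRB1 site in intron 4 of 8 (chr4:47217847-47218748) held 8.15, 9.01 and 6.75 CPM in Control, 2.0, 2.02 and 1.93 CPM with shARID1B.3 and 1.96, 2.5 and 2.72 CPM in shARID1A/B.2.3. It held 7.0, 6.69 and 7.48 CPM with shARID1B.2 and 5.23, 4.45 and 5.32 CPM in shARID1A/B.4.2, so that it was lowest in the groups whose names carry the number 3 (difference between the combinations -1.07, SE 0.15, FDR 1.85e-08). Effects of 1 shRNA beyond its target and unequal silencing by the shRNAs cannot be told apart in these data.

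A list of 49 partner genes of the receptors (auxiliary subunits, anchors, and genes of transmitter synthesis and transport) had 46 genes with sites. Of their 998 tested sites, 73 closed (7.31%, beside 10.3% of all tested sites) and 33 opened (3.31%, beside 3.44%). Scaling on promoter sites gave 111 and 4, beside 15.9% and 0.729% of all tested sites, and the 33 opened sites became 21 and 19 without Control replicates 1 and 3. DLG2, a postsynaptic anchor with 288 tested sites, closed at 11 and opened at 7. CACNG4, an AMPA receptor auxiliary subunit gene, closed at 5 of 17. SHANK2, a scaffold protein gene, closed at 4 and opened at 1 of 25, and SLC32A1, the vesicular GABA transporter gene, closed at 2 and opened at 3 of 8.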

How the data were processed

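ATAC-seq was made from 21 SK-N-BE(2) libraries in 7 groups of 3, sequenced after Tn5 tagmentation. The authors deposited raw read counts per site over 367900 consensus sites of all libraries (GRCh38), annotated by HOMER with the nearest TSS, and no aligner is given in the sources used here. The deposited tables also hold normalised counts and the authors' own DESeq2 log2 ratios and adjusted p-values, which were not used. Because counts are over sites called jointly, a site has a value in every library, and a site that no library opened is missing.

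The counts were tested with edgeR 4.0.16 (R 4.3.3; TMM, filterByExpr with a minimum count of 10, quasi-likelihood F test, Benjamini-Hochberg over all tested sites, FDR under 0.01), with all groups in 1 model and no covariate, and 12 contrasts. The model left 357029 sites and, for counts summed over all sites of a gene name, 26743 names. The SE is the absolute log2 change divided by the square root of F. DESeq2 1.42.0 served as an alternative test. Python 3.11.15 (pandas 2.3.3, numpy 2.4.6, pysam 0.24.0, matplotlib 3.10.9) made the tables, sequence windows and plots. The fit was tested on simulated data with known changes. Replicate libraries differed by more than sampling noise (chi-square per degree of freedom 1.084 to 2.508), so each counted as 1 sample. Counting error covers reads only, and p-values measure the spread among triplicates of 1 cell line.

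Members, partner list, motifs and tests were chosen with earlier results of these data known. The named sites were the 10 largest falls and 5 largest rises among receptor sites called in the mean and in both combinations with the same sign, at least 1 CPM on average, all 6 combination libraries on 1 side of the 3 Control libraries and at most 2 sites a gene. The named genes were the 8 with the smallest p in summed counts, the promoter-TSS sites called and the 4 with the highest CPM, the 3 genes with the most tested sites, the 5 partner genes with the most called sites, and the 5 sites with the smallest p in each difference between silenced groups. Some genes, sites and a sequence that these rules name are not reported here or plotted by name, although counts over all receptor genes include them. A single site outside these rules is marked as chosen after its values were seen, apart from the GRIK3 sites at the start and with the sequence shown. Changes in summed counts are also given for genes beyond the 8, from the 16 called after combined silencing. These 16 are the named genes in the counts of calls kept and lost.

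Same-numbered libraries were checked for pairing by the correlation of their deviations from the group means. It exceeded 0.1 in 8 of 63 pairs (-0.207 to 0.374), and in all pairs only between Control and shARID1A/B.2.3, so that the pairing comes from the data there and not from the labels. Alternatives were other scalings (RLE, library totals, TMM on promoter sites), DESeq2, no filter, only the groups compared, the replicate number as a block, an FDR under 0.05, a log2 change of at least 1, each library left out, sites within 100000 bases of a TSS, and summed counts without promoter sites. Sites with no gene name (192) were left out of the gene counts.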

Additional observations from a re-analysis of the deposited data

Results flagged for a closer look

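Reported receptor sites in the lists of named sites and differences were examined for effects that differed between silenced groups, with the difference itself tested by edgeR at an FDR under 0.01. The GRID1, GRIN2A, GRIN2B, GABRA4, GABRB1 and GRIK4 sites were listed for the smallest p in that same difference. Their passing is therefore no separate support. Groups of 3 libraries are too small for a test of single libraries, and none was made.

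Between ARID1A and ARID1B silencing, the log2 change differed at sites named for GRID1 (46703 bases from the start, -1.33), GRIN2A (47980 bases upstream, -0.99), GRIN2B (81495 bases, -0.96), GRIK5 (17407 bases, -0.61) and GABRP (36362 bases upstream, -0.55). Each was lower with ARID1A silencing in the mean of both shRNAs. At the GRIK5 and GABRP sites the shRNAs overlapped. The GRIK5 site held means of 2.06 and 2.63 CPM with shARID1A.2 and shARID1A.4 and 4.88 and 2.56 CPM with shARID1B.2 and shARID1B.3, so that shARID1B.2 alone stood apart, and the GABRP site held 7.02 and 3.69 CPM and 6.94 and 7.88 CPM, so that shARID1A.4 alone stood apart. At the GRIN2A site the means were 5.06 CPM in Control, 2.79 and 2.07 CPM with the shRNAs against ARID1A and 4.93 and 4.6 CPM with those against ARID1B.

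Between shARID1A/B.2.3 and shARID1A/B.4.2, the log2 change differed at a site named for GABRP (36362 bases upstream, 0.82), which was higher with shARID1A/B.2.3, and at sites named for GABRA4 (22535 bases, -1.23), GABRB1 (187019 bases, -1.07) and GRIK4 (52972 bases, -0.90), which were lower.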

How the results depend on the processing

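No call of a named site or gene reversed. Of the alternatives to the 16 named genes, 297 kept the direction and the call and 23 lost the call, and of those to the 15 named sites 264 kept it and 6 lost it. Requiring a log2 change of at least 1 left 63 closed and 1 opened sites for combined silencing, 25 and 0 for shARID1A.2, 29 and 1 for ARID1A, 27 and 1 for shARID1A.4, 8 and 5 for shARID1B.2, 15 and 2 for ARID1B, 30 and 6 for shARID1B.3, 75 and 3 for shARID1A/B.2.3, 57 and 2 for shARID1A/B.4.2, 30 and 6 for the partner genes, 1 lower and 0 higher receptor genes, and 8, 8 and 14 sites differing between ARID1A and ARID1B, combined and single silencing, and the combinations. At an FDR under 0.05 these differences were 97, 169 and 110, closed sites were 71 for ARID1B, 97 for shARID1A.4 and 111 for shARID1B.3, and opened sites were 83 for combined silencing, 14 for shARID1A.2, 25 for ARID1A, 36 for shARID1A.4, 33 for shARID1B.2, 24 for ARID1B, 42 for shARID1B.3, 128 for shARID1A/B.2.3, 61 for shARID1A/B.4.2 and 68 for the partner genes. TMM on promoter sites gave 198 closed and 5 opened sites for combined silencing, 117 and 4 for shARID1A.4, 132 and 3 for ARID1A, 122 and 6 for shARID1B.3, 79 and 3 for ARID1B, 188 and 6 for shARID1A/B.4.2, 111 and 4 for the partner genes, opened sites of 2 for shARID1A.2 and 7 for shARID1A/B.2.3, and 1 higher receptor gene. DESeq2 closed 36 sites for shARID1A.2 and opened 3, and opened 12 for shARID1A.4, 9 for shARID1B.2, 13 for shARID1B.3, 15 for shARID1A/B.2.3 and 17 for the partner genes. Library totals gave 5 higher genes and 66 opened sites for shARID1A/B.2.3, summed counts without promoter sites gave 5 higher genes, sites within 100000 bases of a start gave 69 closed for combined silencing, and a fit of only the groups compared gave 16 opened for shARID1A/B.2.3. In all of these the cause was not tested. A count without the share of all tested sites at the same setting does not show a change particular to the receptor sites.

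With the replicate number as a block, combined silencing closed 134 and opened 38 sites and shARID1A/B.2.3 closed 134 and opened 47, and no count moved by more than 1.5 times. In a block fit of only the groups compared, chosen after seeing the data, opened sites were 15 for shARID1A.2, 22 for ARID1A, 29 for shARID1A.4, 10 for shARID1B.2 and 73 for shARID1A/B.2.3, and 5 genes were higher. Without replicate 2 of Control and of shARID1A/B.2.3 together, also chosen after seeing the data, 22 sites opened for shARID1A/B.2.3.

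With each library left out in turn, closed sites ranged from 113 to 128 for combined silencing, 53 to 69 for ARID1A, 39 to 51 for shARID1A.2, 34 to 44 for ARID1B, 44 to 51 for shARID1A.4, 16 to 21 for shARID1B.2, 48 to 62 for shARID1B.3, 108 to 119 for shARID1A/B.2.3, 76 to 92 for shARID1A/B.4.2 and 58 to 69 for the partner genes. Opened sites ranged from 18 to 45, 3 to 15, 3 to 6, 5 to 8, 9 to 14, 8 to 15, 12 to 19, 16 to 73, 21 to 31 and 19 to 41 in the same order. Sites differing ranged from 46 to 57 for ARID1A and ARID1B, 71 to 95 for combined and single silencing and 34 to 54 for the combinations, and receptor genes from 9 to 13 lower and 3 to 4 higher. Of the receptor sites, 959 of 1774 held under 1 CPM, and how large a change the depth could detect there was not measured.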
